A study of Homo sapiens with 12 samples.

Results

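The G1 cell cycle machinery was followed through 10 genes taken by name: the D cyclins CCND1, CCND2 and CCND3, the kinases CDK4 and CDK6, the inhibitors CDKN1B and CDKN2A, the pocket protein gene RB1, and the late G1 pair CCNE1 and CDK2. All 10 were matched by Ensembl identifier among the 63677 genes of the count table, and 10 of 10 passed the filter on low counts that left 18674 genes. CCND2, CDK6 and CDKN2A passed only through the lines in which they were high.

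The libraries came from JEKO1, JVM2 and MAVER1, established human mantle cell lymphoma (MCL) lines grown in RPMI medium with fetal calf serum, of which JVM2 received less than the other lines. Each line gave 1 library per treatment after 48 h: control, ironomycin (50 nM in JEKO1, 250 nM in JVM2 and MAVER1), ibrutinib (0.5 µM in JEKO1, 1.5 µM in JVM2, 6.25 µM in MAVER1), or both drugs at the same doses. Ironomycin is a salinomycin derivative that traps iron in lysosomes, and ibrutinib inhibits BTK, a kinase of B cell receptor signalling. Dose varied with line, so the effects of dose and of line cannot be told apart. The line was the replicate of a treatment (n = 3). Nothing in the labels says that the 4 libraries of a line were separate cultures beyond the use of flasks, so p-values between lines measure only the spread between these libraries.

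D-type cyclins are the growth factor sensors of the cell cycle: they bind CDK4 or CDK6, and the active kinase phosphorylates the RB protein, which then releases E2F transcription factors. Cyclin E with CDK2 completes that phosphorylation, while p27 (CDKN1B) and p16INK4a (CDKN2A) restrain the kinases. In MCL a translocation places CCND1 beside an immunoglobulin enhancer, so that B cells, which normally use cyclins D2 and D3, express cyclin D1.

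Depth was even, at 35448523 to 38630809 counted reads per library. The B cell markers MS4A1, CD79A, CD79B, PAX5 and CD22 were detected in every library, whereas SOX11, the other marker of MCL, had 0 reads in all 4 JVM2 libraries and 108.5 to 181.0 CPM in JEKO1 (CPM, counts scaled to the TMM-corrected library total; the text gives the number of reads where it is small). Of 10 markers of T cells, monocytes and epithelium, FCGR3A had 0 reads in all libraries and CD3D and CD2 had 0 to 28, while EPCAM reached 537 reads in MAVER1, CD7 266 in JEKO1 and CSF1R 181 in JVM2. Mitochondrial genes took 1.92% to 2.05% of reads in the controls, and their lowest shares were those of the JEKO1 (0.883%) and MAVER1 (1.21%) libraries given both drugs. In bulk RNA, fewer cells of a cycle phase and less RNA per cell cannot be told apart.

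The 3 lines used different D cyclins. CCND1 (ENSG00000110092) had 3178 CPM in the JEKO1 control library, 2335 with ironomycin, 3513 with ibrutinib and 2182 with both. In JVM2 the 4 values were 322, 221.1, 301.5 and 216.2 CPM. In MAVER1 they were 4252, 4562, 4620 and 4828 CPM. The ranges of the 3 lines did not overlap, with JVM2 lowest and MAVER1 highest. On a log2 scale CCND1 was higher than in JVM2 by 3.40 ± 0.15 (SE) in JEKO1 and by 4.14 ± 0.16 in MAVER1 (edgeR, adjusted p = 4.31e-09 and 1.48e-09). Per kilobase of exon, CCND1 ranked between 31 and 39 of 52526 genes in the MAVER1 libraries, between 39 and 53 in JEKO1, and between 668 and 991 in JVM2. A single gene thus took up to 0.48% of the reads of a MAVER1 library.

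CCND2 (ENSG00000118971) showed the opposite order. JVM2 had 8501, 8853, 9648 and 9327 reads with control, ironomycin, ibrutinib and both. JEKO1 had 25, 28, 9 and 32 reads, and MAVER1 had 4, 5, 2 and 9. Summed over 4 libraries, CCND2 was 438-fold lower in JEKO1 than in JVM2 (95% counting interval 358 to 542) and 1869-fold lower in MAVER1 (1210 to 3059). These intervals cover counting error only. CCND3 (ENSG00000112576), the third D cyclin, was expressed in all lines, with means ± SD over 4 libraries of 96.6 ± 12.03 CPM in JVM2, 68.5 ± 15.8 in JEKO1 and 41.2 ± 6.72 in MAVER1. Each of these steps passed the edgeR test (adjusted p between 1.38e-07 and 0.000128), although the lowest JVM2 library, at 81.9 CPM, lay under the highest of JEKO1, at 88.8.

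Scaled by exon length, CCND1 made up 97.9% to 98.1% of D cyclin transcript in JEKO1 and 99.1% to 99.5% in MAVER1. In JVM2 it made up only 47.6% to 56.0%, with CCND2 at 28.5% to 37.4% and CCND3 at 15.0% to 16.5%. Within JVM2, CCND1 had its 2 lowest shares in the 2 libraries with ironomycin, 47.9% and 47.6%.

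**Figure D1:**
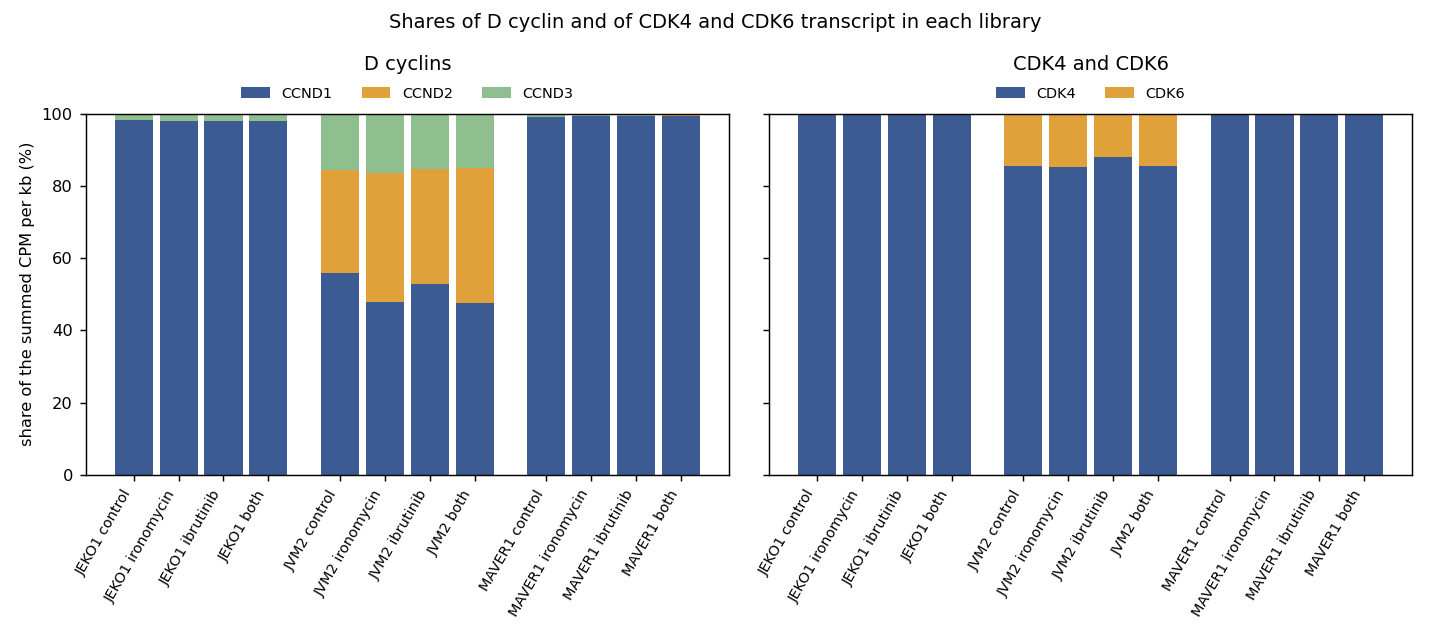
Share (%) of each gene in the summed CPM per kilobase of exon of the D cyclins (left) and of CDK4 and CDK6 (right), 1 bar per library, grouped by line and treatment. CCND1 fills 97.9% or more of each JEKO1 and MAVER1 bar, while the JVM2 bars hold all 3 D cyclins and a CDK6 share of 12.2% to 14.7%.

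CDK4 and CDK6, the partners of the D cyclins, were also split by line. CDK4 (ENSG00000135446) was highest in JEKO1, with 674.5, 580, 698.9 and 443.9 CPM for control, ironomycin, ibrutinib and both. It was at 282.8, 274.6, 286.5 and 266.9 CPM in JVM2 and at 392.5, 302, 335.8 and 256.4 CPM in MAVER1. JEKO1 exceeded JVM2 by 1.09 ± 0.10 and MAVER1 by 0.89 ± 0.10 on the log2 scale (edgeR, adjusted p = 1.62e-06 and 1.22e-05), whereas MAVER1 and JVM2 overlapped and did not pass the test (0.19 ± 0.10, adjusted p = 0.104). CDK6 (ENSG00000105810) had 0 reads in all 4 JEKO1 libraries. It had 6476, 6684, 5488 and 6557 reads in JVM2 and 75, 141, 53 and 60 in MAVER1. Against a floor of 3 reads per library, CDK6 was at least 2382-fold lower in JEKO1 than in JVM2, and it was 78.8-fold lower in MAVER1 (95% counting interval 70.7 to 88.1). JVM2, the line with CCND2, was therefore also the only one of the 3 with more than 141 reads of CDK6 in a library.

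The region before the CDK4 start is shown because CDK4 was the only kinase gene among the members that was called lower with ironomycin in 2 lines, as given by line further on. The 250 bases before the start (RefSeq, GRCh38.p14, chr12:57752311-57752560, minus strand, read 5′ to 3′ along the gene) hold the E-box CACGTG, a palindrome that reads the same on both strands, 3 times, beginning 216, 196 and 101 bases upstream; capitals mark the E-boxes. The E-box was in 7.26% of 35114 RefSeq promoters of 300 bases, and 0.094% held at least 3.
CDK4: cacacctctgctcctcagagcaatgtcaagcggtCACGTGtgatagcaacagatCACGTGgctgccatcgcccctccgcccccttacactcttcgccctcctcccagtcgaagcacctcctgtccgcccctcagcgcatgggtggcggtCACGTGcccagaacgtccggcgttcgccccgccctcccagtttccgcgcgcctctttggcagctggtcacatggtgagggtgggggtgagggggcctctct

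The inhibitor gene CDKN2A (ENSG00000147889) encodes p16INK4a and, from another first exon, p14ARF, which the counts per gene merge. JEKO1 had 5247, 4310, 5024 and 3801 reads for control, ironomycin, ibrutinib and both, and JVM2 had 1143, 747, 920 and 648. MAVER1 had 1, 1, 2 and 0 reads. Over 4 libraries CDKN2A in MAVER1 was 894-fold lower than in JVM2 (95% counting interval 349 to 3281) and 4186-fold lower than in JEKO1 (1635 to 15360). The genes nearest to it had 0 reads in MAVER1 too. MTAP, which lies next to CDKN2A and encodes a methionine salvage enzyme, had 878 to 1142 reads in every JEKO1 and JVM2 library and 0 in all 4 of MAVER1, at least 304-fold lower than in JVM2 at the floor of 3 reads per library. CDKN2B, the p15 gene, and the antisense transcript CDKN2B-AS1 had 0 reads in MAVER1, against 19 to 65 and 86 to 98 reads per library in JEKO1 and 2 to 4 and 7 to 10 in JVM2. Further out, KLHL9 had 846 to 1185 reads in MAVER1, 873 to 1077 in JEKO1 and 1827 to 2216 in JVM2. IFNE and DMRTA1 had 0 to 4 reads in every library, and ELAVL2 had reads only in JVM2, 227 to 261 per library. The setting for strand in the counting is not given in the sources used here, so reads of CDKN2A, CDKN2B and the antisense transcript may be mixed where they overlap.

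RB1 (ENSG00000139687), the substrate of the cyclin D kinases, was lowest in MAVER1. Its reads per library were 7404, 5732, 8511 and 5562 in JEKO1 for control, ironomycin, ibrutinib and both, 4666, 4138, 4560 and 3916 in JVM2, and 2447, 2618, 2609 and 2470 in MAVER1. The CPM ranges of MAVER1 (65.2 to 70.3) and JVM2 (105.5 to 133.2) did not overlap, while those of JVM2 and JEKO1 (131.6 to 213.9) overlapped. RB1 was lower in MAVER1 than in JVM2, with a log2 difference of -0.80 ± 0.11 (edgeR, adjusted p = 3.87e-05). Of 5 neighbours of RB1 that were tested and are given here, 4 were lower in MAVER1 than in JVM2 in the same test, and the same 4 were lower in MAVER1 than in JEKO1. They were SUCLA2 (-1.43 against JVM2), MED4 (-0.78), RCBTB2 (-2.32) and FNDC3A (-0.84), and they lie on both sides of RB1. ITM2B, the gene next to RB1 on the MED4 side, was the exception, with 44.5 to 57.8 CPM in MAVER1 and 40.7 to 52.4 in JVM2. LPAR6, which lies within RB1, had 0 to 9 reads in each library, and CYSLTR2 had 0 to 6.

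**Figure D2:**
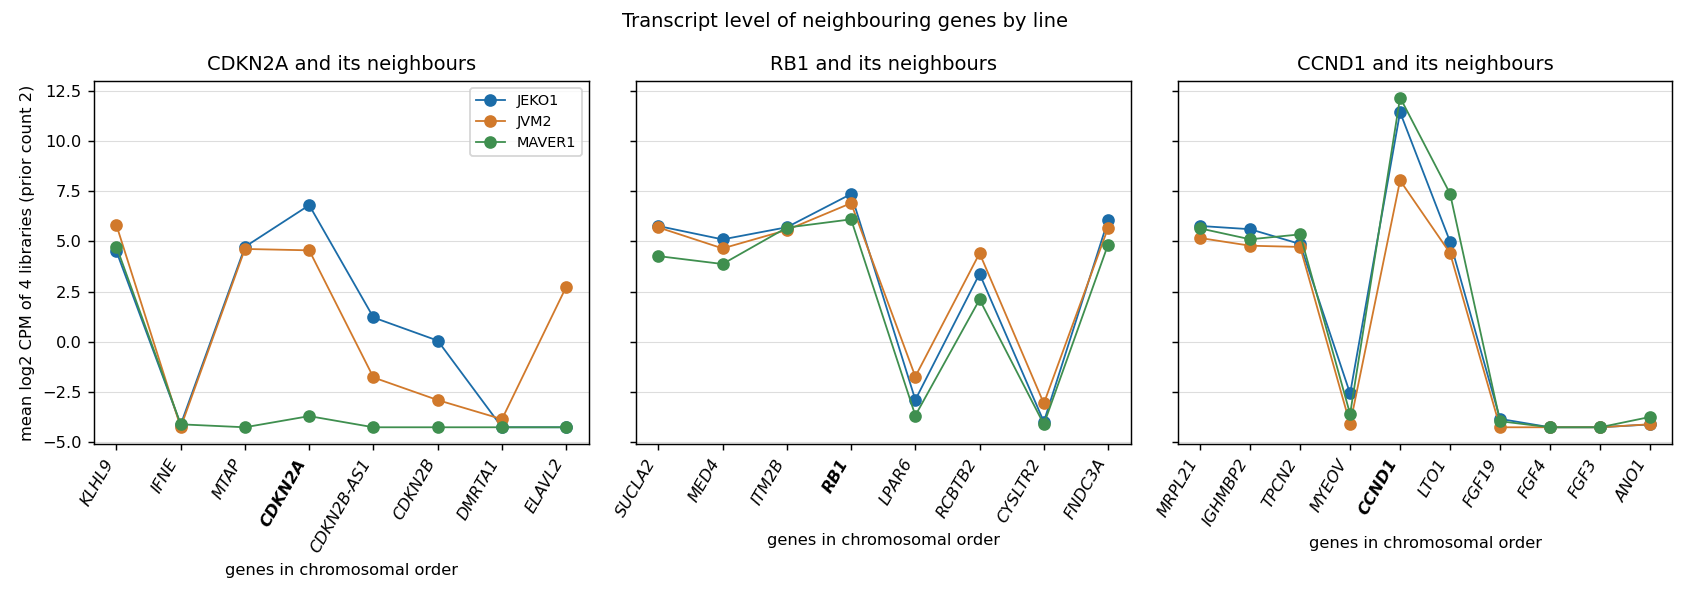
Mean log2 CPM (prior count 2) over the 4 libraries of a line for CDKN2A, RB1 and CCND1 (bold) and their neighbours in chromosomal order, 1 colour per line; -4.25 is the value of 0 reads. In MAVER1 the points of MTAP, CDKN2A, CDKN2B-AS1 and CDKN2B lie at or near that value, those of SUCLA2, MED4, RCBTB2 and FNDC3A lie under both other lines, and LTO1 beside CCND1 lies above them.

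Beside CCND1, the next gene LTO1 had 5283 to 6940 reads per library in MAVER1, against 1148 to 1636 in JEKO1 and 672 to 862 in JVM2. On the log2 scale LTO1 was higher in MAVER1 than in JVM2 by 2.96, and JEKO1 minus MAVER1 was -2.39 (edgeR, adjusted p = 2.31e-10 and 2.1e-09). FGF19, FGF4, FGF3 and ANO1 had 0 to 2 reads in all 12 libraries. MYEOV, on the other side, had 0 to 30 reads, and MRPL21, IGHMBP2 and TPCN2 were expressed in all lines and were, with LTO1, the 4 tested neighbours that were higher in MAVER1 than in JVM2. Beside CCND2, TIGAR, which lies next to it, had 1060 to 1329 reads in JVM2 and 415 to 882 in the other lines, while PARP11 had fewer in JVM2 (261 to 286) than in the other lines (542 to 1249). C12orf4 and RAD51AP1 were highest in JEKO1, and of the others CCND2-AS1 had 3 to 9 reads in JVM2 and 0 elsewhere, FGF23 had 0 and FGF6 0 to 2.

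CDKN1B, CCNE1 and CDK2 were detected in every library. CDKN1B (ENSG00000111276) averaged 66.3 ± 9.57 CPM in JEKO1, 70.4 ± 6.51 in JVM2 and 101.9 ± 19.9 in MAVER1 (SD, 4 libraries), and JEKO1 and JVM2 were not called different (-0.10 ± 0.12, edgeR, adjusted p = 0.473). CCNE1 (ENSG00000105173), the cyclin E1 gene, was lowest in JEKO1, with 13.3 to 19.5 CPM, against 24.2 to 33.8 in MAVER1 and 36.5 to 46.8 in JVM2, and the 3 ranges did not overlap. On the log2 scale CCNE1 was at -1.31 ± 0.09 in JEKO1 against JVM2 and at -0.49 ± 0.09 in MAVER1 against JVM2 (edgeR, adjusted p = 1.95e-07 and 0.000519). CDK2 (ENSG00000123374) followed the same order, with means of 61.9 ± 12.65 CPM in JEKO1, 86.8 ± 9.56 in MAVER1 and 108.6 ± 15.1 in JVM2 (-0.82 ± 0.08 in JEKO1 against JVM2, edgeR, adjusted p = 3.71e-06).

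Counting members, 9 of 10 were called between JEKO1 and JVM2 (all but CDKN1B), 9 of 10 between MAVER1 and JVM2 (all but CDK4) and 10 of 10 between JEKO1 and MAVER1, at an adjusted p under 0.05 in edgeR. The same test called 78.3%, 71.2% and 66.4% of all 18674 genes. Most genes of any kind thus differed between these lines, and the count of members says little by itself. The count includes CCND2, CDK6 and CDKN2A in each comparison. They passed the filter only through lines in which they were high, so their calls against lines where they were low carry no further weight.

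**Figure D3:**
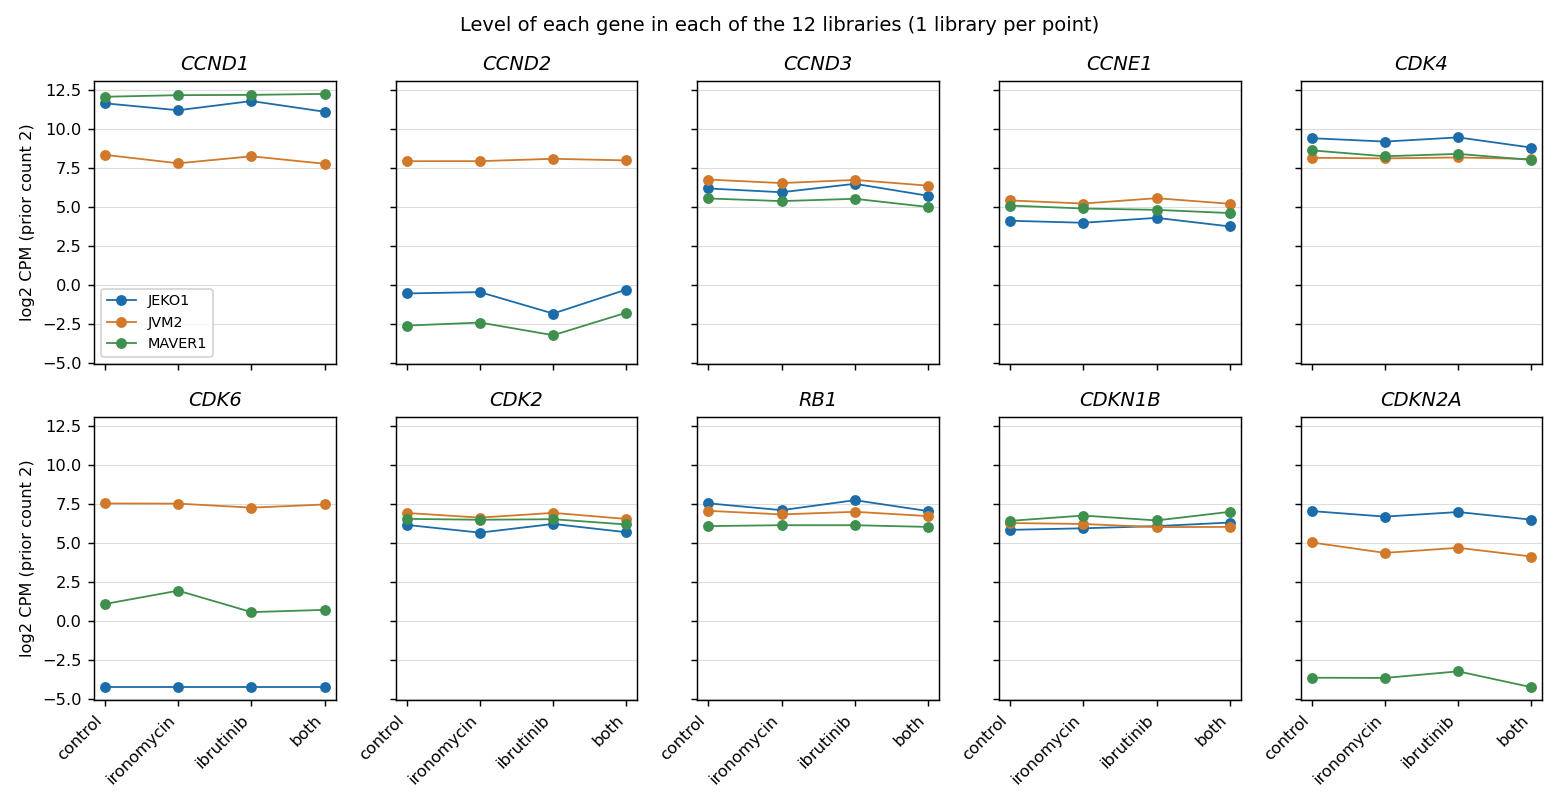
log2 CPM (prior count 2) of the 10 genes in each of the 12 libraries, 1 panel per gene and 1 colour per line, with lines joining the 4 treatments of a cell line. CCND2, CDK6 and CDKN2A are separated by line by several log2 units, and their treatment steps within a line are small beside the steps between JVM2 and the line at the bottom of the panel.

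With ironomycin against control, over the 3 lines, 0 of 10 members were called (edgeR, adjusted p from 0.0798 to 0.953), beside 0.584% of all genes, and 3 members had an unadjusted p under 0.05. The log2 fold changes were -0.30 for CCND1, 0.04 for CCND2, -0.21 for CCND3, -0.22 for CDK4, 0.36 for CDK6, -0.20 for RB1, 0.12 for CDKN1B, -0.51 for CDKN2A, -0.17 for CCNE1 and -0.28 for CDK2. DESeq2 called 2 members lower, CDKN2A (-0.51, adjusted p = 0.00611) and CDK2 (-0.29, adjusted p = 0.0226), among 2308 genes that it called, against 109 in edgeR. With ibrutinib against control 0 of 10 were called, beside 0% of all genes (680 genes at an unadjusted p under 0.05 in edgeR, 27 called by DESeq2). The members' log2 fold changes lay between -0.34 (CDK6) and 0.09 (CCND3), with CCND1 at 0.05, CCND2 at -0.09, CDK4 at -0.05, RB1 at 0.07, CDKN1B at -0.0050, CDKN2A at -0.19, CCNE1 at 0.02 and CDK2 at 0.02, and with 0 at an unadjusted p under 0.05 in edgeR and 0 called by DESeq2.

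With both drugs, 5 of 10 members fell against control, beside 28.2% of all genes called in either direction (2613 of 18674 lower). CCND3 was lower in all 3 lines, at 52.2 CPM with both drugs against 72.2 in control in JEKO1, 81.9 against 107.3 in JVM2, and 31.7 against 46.3 in MAVER1 (log2 fold change -0.47 ± 0.09, edgeR, adjusted p = 0.00662). CDK4 fell by 0.43 (-0.43 ± 0.11, adjusted p = 0.0192 in edgeR), with a log2 ratio of -0.60 in JEKO1 and -0.61 in MAVER1 but -0.08 in JVM2. CDK2 stood at 51.4 CPM against 71.2 in control in JEKO1, at 92.8 against 121.2 in JVM2, and at 72.6 against 93.2 in MAVER1 (-0.41 ± 0.10, edgeR, adjusted p = 0.012). CCNE1 stood at 13.3 against 17.2 CPM, 36.5 against 42.4 and 24.2 against 33.8 in the same order of lines (-0.35 ± 0.11, edgeR, adjusted p = 0.0317). CDKN2A fell too (-0.73 ± 0.13, edgeR, adjusted p = 0.00473), with log2 ratios of -0.55 in JEKO1 and -0.90 in JVM2, while MAVER1 had 1 read in control and 0 with both drugs.

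CCND1 was not called with both drugs (-0.31 ± 0.16, edgeR, adjusted p = 0.167). Its log2 ratio was -0.54 in JEKO1 and -0.57 in JVM2, but 0.18 in MAVER1. RB1 was likewise not called (-0.30 ± 0.12, adjusted p = 0.0898), with ratios of -0.50, -0.34 and -0.05 in JEKO1, JVM2 and MAVER1. CDKN1B, the p27 gene, had ratios of 0.47 in JEKO1 and 0.58 in MAVER1 and -0.25 in JVM2 (0.27 ± 0.14, edgeR, adjusted p = 0.179). CCND2 was at 0.17 ± 0.27 and CDK6 at -0.16 ± 0.26 (edgeR, adjusted p = 0.662 and 0.68).

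Against ibrutinib alone, both drugs gave the same 5 members lower, CCND3 (-0.56), CDK4 (-0.38), CDKN2A (-0.54), CCNE1 (-0.37) and CDK2 (-0.42). Of all 18674 genes, 23.3% were called in either direction, and 2147 genes were lower. RB1 was at -0.37 (edgeR, adjusted p = 0.0504), CCND1 at -0.36, CDKN1B at 0.28, CCND2 at 0.26 and CDK6 at 0.18 (adjusted p from 0.121 to 0.658). The comparison shares its libraries with both drugs with the preceding one. Against ironomycin alone 0 of 10 members were called, beside 0% of all genes (1970 at an unadjusted p under 0.05 in edgeR, 166 called by DESeq2), with members' log2 fold changes between -0.53 (CDK6) and 0.15 (CDKN1B). CCND3, at -0.25, was the 1 member at an unadjusted p under 0.05 in edgeR. CCND1 was at -0.0087, CCND2 at 0.13, CDK4 at -0.21, RB1 at -0.09, CDKN2A at -0.22, CCNE1 at -0.18 and CDK2 at -0.13. DESeq2 called 0 of 10 in that comparison.

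Leaving out JEKO1 or MAVER1 left 0 of 10 members called in both comparisons, and calls over all genes then went from 5268 to 37 and 22 against control and from 4359 to 1 and 6 against ibrutinib. The log2 fold changes against control stayed below 0 without any 1 line, from -0.54 to -0.43 for CCND3, -0.64 to -0.34 for CDK4, -0.91 to -0.59 for CDKN2A, -0.46 to -0.29 for CCNE1 and -0.45 to -0.37 for CDK2. Leaving out JVM2 gave 6 against control, with CDKN1B higher as the added gene (0.49, edgeR, adjusted p = 0.0168), and 5 against ibrutinib, with CCND2, at 2 to 32 reads in the remaining lines, in place of CCNE1. Fitting only the libraries of the 2 groups compared, or fitting without the term for line, also left 0 members called, where these fits called 5 and 0 of all genes against control and 306 and 0 against ibrutinib.

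For the effect within each line, the 2 libraries with ironomycin were set against the 2 without, averaged over ibrutinib absent and present. The fit held all 12 libraries, with the ibrutinib terms and the estimate of spread shared by the lines. Each line had 1 library per treatment, so p-values within lines and for the difference between lines do not measure the spread of repeated cultures. In JEKO1, 6 of 10 members fell, beside 33.3% of all genes called in either direction (3032 of 18674 lower). RB1 fell by 0.57 on the log2 scale (-0.57 ± 0.08), CCND1 by the same amount (-0.57 ± 0.10), CCND3 by 0.51 (-0.51 ± 0.10), CDK2 by 0.51 (-0.51 ± 0.09), CDK4 by 0.43 (-0.43 ± 0.10) and CDKN2A by 0.42 (-0.42 ± 0.10), with adjusted p from 0.000529 to 0.00751 in edgeR. For all 6 genes, both JEKO1 libraries with ironomycin lay under both without it. The calls of CCND1, CCND3, RB1 and CDK2 held when each of the 4 JEKO1 libraries was left out in turn, whereas CDK4 lost its call without the library given ibrutinib or both (adjusted p = 0.0829 and 0.092), and CDKN2A without the library given ironomycin, ibrutinib or both (0.0541, 0.13 and 0.055). CCNE1 stood at -0.34 ± 0.12 (adjusted p = 0.0534) and CDKN1B at 0.16 ± 0.14 (adjusted p = 0.39). CCND2, with 9 to 32 reads in JEKO1, was at 0.73 ± 0.36 (edgeR, adjusted p = 0.141), and CDK6 had no reads. Without 1 library, 2668 to 5410 of all genes were called in JEKO1, against 6211 with all 4.

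In JVM2, 2 of 10 members fell, beside 3.27% of all genes called in either direction (252 of 18674 lower). They were CCND1 (-0.51 ± 0.10, edgeR, adjusted p = 0.0277) and CDKN2A (-0.62 ± 0.10, adjusted p = 0.0134). CDK2 missed the threshold (-0.34 ± 0.09, adjusted p = 0.0572), and CDK4 was at -0.07 ± 0.10. CCND3 was at -0.30 ± 0.10, RB1 at -0.25 ± 0.08, CCNE1 at -0.28 ± 0.12 and CDKN1B at -0.02 ± 0.14 (edgeR, adjusted p from 0.116 to 0.982). CCND2, which was high only in JVM2, was at -0.05 ± 0.13 and CDK6 at 0.10 ± 0.17, with adjusted p of 0.884 and 0.792 in edgeR. Leaving out any 1 of the 4 JVM2 libraries left 0 members called, with an adjusted p in edgeR between 0.0729 and 0.266 for CCND1 and between 0.0529 and 0.188 for CDKN2A, and 29 to 391 of all genes called, against 610 with all 4. The log2 fold changes then lay between -0.62 and -0.40 for CCND1 and between -0.76 and -0.47 for CDKN2A.

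In MAVER1, 3 of 10 members were called, beside 32.7% of all genes. CDK4 and CCND3 fell (-0.39 ± 0.10 and -0.35 ± 0.10, edgeR, adjusted p = 0.0132 and 0.0187). CDKN1B rose by 0.45 ± 0.13 (adjusted p = 0.0254), with 85.3 and 86.9 CPM in the control and ibrutinib libraries and 108 and 127.5 with ironomycin and with both. CCND1 was at 0.08 ± 0.10 (adjusted p = 0.58) and RB1 at -0.03 ± 0.08 (adjusted p = 0.863). CDK2 was at -0.19 ± 0.09, CCNE1 at -0.20 ± 0.12 and CDK6, with 53 to 141 reads, at 0.59 ± 0.29 (edgeR, adjusted p from 0.112 to 0.228). CCND2 and CDKN2A, with 2 to 9 and 0 to 2 reads in MAVER1, were not called (adjusted p = 0.27 and 0.447 in edgeR). CDKN1B lost its call without any 1 of the 4 MAVER1 libraries (adjusted p in edgeR 0.0757 to 0.205), CDK4 without the control, ironomycin or both-drug library (0.0884 to 0.216), and CCND3 without the control or both-drug library (0.18 and 0.22). Without 1 library, 2639 to 3576 of all genes were called in MAVER1, against 6104 with all 4. The log2 fold changes then lay between -0.55 and -0.28 for CDK4, -0.46 and -0.26 for CCND3, and 0.37 and 0.52 for CDKN1B.

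**Figure D4:**
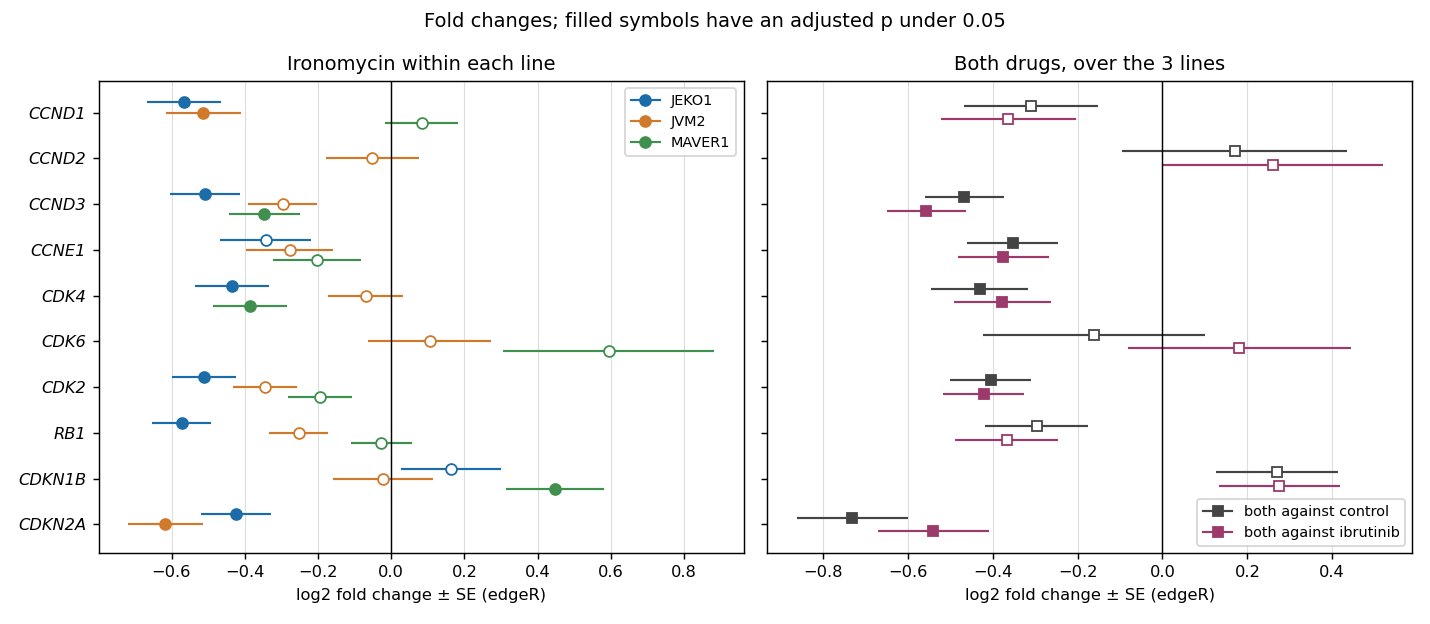
log2 fold change ± SE (edgeR) of the 10 genes with ironomycin within each line (left; 2 libraries with against 2 without) and with both drugs against control or against ibrutinib over the 3 lines (right); filled symbols have an adjusted p under 0.05, and genes with 32 or fewer reads in every library of a line are left out for that line. CCND1 and RB1 lie left of 0 in JEKO1 and JVM2 and at 0.08 and -0.03 in MAVER1.

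The ironomycin effect itself differed between lines for 2 of 10 members, beside 9.38% of all genes. For CCND1 it was higher in MAVER1 than in JEKO1 by 0.65 and in JVM2 than in JEKO1 by 0.05 (log2 differences, edgeR, adjusted p = 0.0261 for both together). For RB1 the differences were 0.55 and 0.32 (adjusted p = 0.0328). CCND2, CCND3, CDK4, CDK6, CDKN1B, CDKN2A, CCNE1 and CDK2 were not called (adjusted p from 0.194 to 0.847 in edgeR). Without MAVER1 neither was called (adjusted p = 0.928 for CCND1 and 0.312 for RB1), and without JEKO1 only CCND1 was (0.0138 against 0.231 for RB1). Without JVM2 only RB1 was called (0.0351 against 0.0697 for CCND1). MAVER1, the line with the highest CCND1, was the one in which CCND1 was not lower with ironomycin. The effects in JEKO1 and JVM2 were -0.57 and -0.51, although CCND1 was higher in JEKO1 than in JVM2 by 3.40. A relation of level to effect was not tested. The mitochondrial share of reads was also lower with ironomycin than in control, at 1.27% against 2.05% in JEKO1, 1.56% against 1.92% in MAVER1 and 1.75% against 2.03% in JVM2, and its part in these results was not tested.

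Around the 10 genes, other parts of the pathway were read from lists of genes. Among 11 other cyclins, CDKs and CDK activators, 7 fell with both drugs against control (median log2 fold change -0.36, against 0.05 for all genes, of which 28.2% were called in either direction). They included CKS2 (-0.59), CCNA2 (-0.82), the cyclin of S phase and G2, CCNH (-0.55), a subunit of the kinase that activates CDKs, and CDK1 (-0.69), the mitotic kinase (edgeR, adjusted p from 0.00334 to 0.00684). With ironomycin within line, 6 of the 11 fell in JEKO1, 7 in MAVER1 and 0 in JVM2. Of all genes, 33.3%, 32.7% and 3.27% were called in either direction. None of the 11 rose in any of the 3 lines.

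Of 5 other CDK inhibitors, 4 were called with both drugs, 2 in each direction, beside 28.2% of all genes. With both drugs, CDKN1A (p21) rose by 0.63 and CDKN1C (p57) by 0.98, while CDKN2D (p19INK4d, -0.97) and CDKN2C (p18INK4c, -0.51) fell (edgeR, adjusted p = 0.0317, 0.0476, 0.00357 and 0.00659). CDKN1A in JVM2 stood at 430.6 to 627.6 CPM, above every library of the other lines, 33.2 to 141.2. CDKN2C fell with ironomycin within all 3 lines, JEKO1 at -0.62, JVM2 at -0.52 and MAVER1 at -0.30 on the log2 scale (edgeR, adjusted p = 0.000645, 0.0319 and 0.0247). CDKN2B, whose levels are given above, had an adjusted p of 0.836 with both drugs in edgeR.

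Of 17 pocket protein, E2F and DREAM genes, 5 were called with both drugs (median -0.14), a share near the 28.2% of all genes. Among them the RB relative RBL2 (p130) rose by 0.36. The 4 that fell included the E2F partner TFDP1 (-0.78), MYBL2 (-0.46), a subunit of the complex that drives G2 genes, and E2F4 (-0.35), the E2F that works with p130. Within JEKO1, 8 of the 17 fell and 3 rose with ironomycin. Within MAVER1, 4 fell and 4 rose, and within JVM2 1 fell. Calls over all genes in JEKO1, MAVER1 and JVM2 were 33.3%, 32.7% and 3.27%. Of 14 genes for turnover of cyclins and p27, 2 were called with both drugs, each of them lower (median -0.15). Over all 18674 genes, 28.2% were called in either direction, 2655 higher and 2613 lower. The 2 genes were SKP2 (-0.48), the receptor that marks p27 for destruction, and CUL1 (-0.26), its scaffold. With ironomycin within line, 7 of the 14 fell and 2 rose in MAVER1, 5 fell in JEKO1 and 0 were called in JVM2, beside 32.7%, 33.3% and 3.27% of all genes. The 4 with the lowest adjusted p in MAVER1 were SKP2 (-0.56), GSK3B (0.47), a kinase that marks cyclin D1 for destruction, FZR1 (-0.36), an activator of the anaphase-promoting complex, and CUL1 (-0.34). SKP2 fell in MAVER1 (edgeR, adjusted p = 0.00134), as it did in JEKO1 (-0.55, adjusted p = 0.00165), whereas in JVM2 it was at -0.11 (adjusted p = 0.593).

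Genes of S phase that E2F factors control are the output of the axis. Of 18 tested, 12 fell with both drugs against control and 0 rose (median -0.52), beside 28.2% of all genes called in either direction. Against ibrutinib 14 fell, beside 23.3% of all genes called in either direction. The 4 with the lowest adjusted p against control were MCM5 (-0.55), ORC1 (-0.50), RRM2 (-0.79) and TK1 (-0.81). With ironomycin within line, 17 of 18 fell in JEKO1 (median -0.67), 11 in MAVER1 (median -0.34) and 4 in JVM2 (median -0.27), beside the 33.3%, 32.7% and 3.27% of all genes called in either direction. The 4 in JVM2 were CDC6 (-0.46), RRM2 (-0.56), MCM6 (-0.39) and MCM5 (-0.42). MCM5, a subunit of the replicative helicase, and RRM2, of ribonucleotide reductase, which needs iron, were called in all 3 lines.

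**Figure D5:**
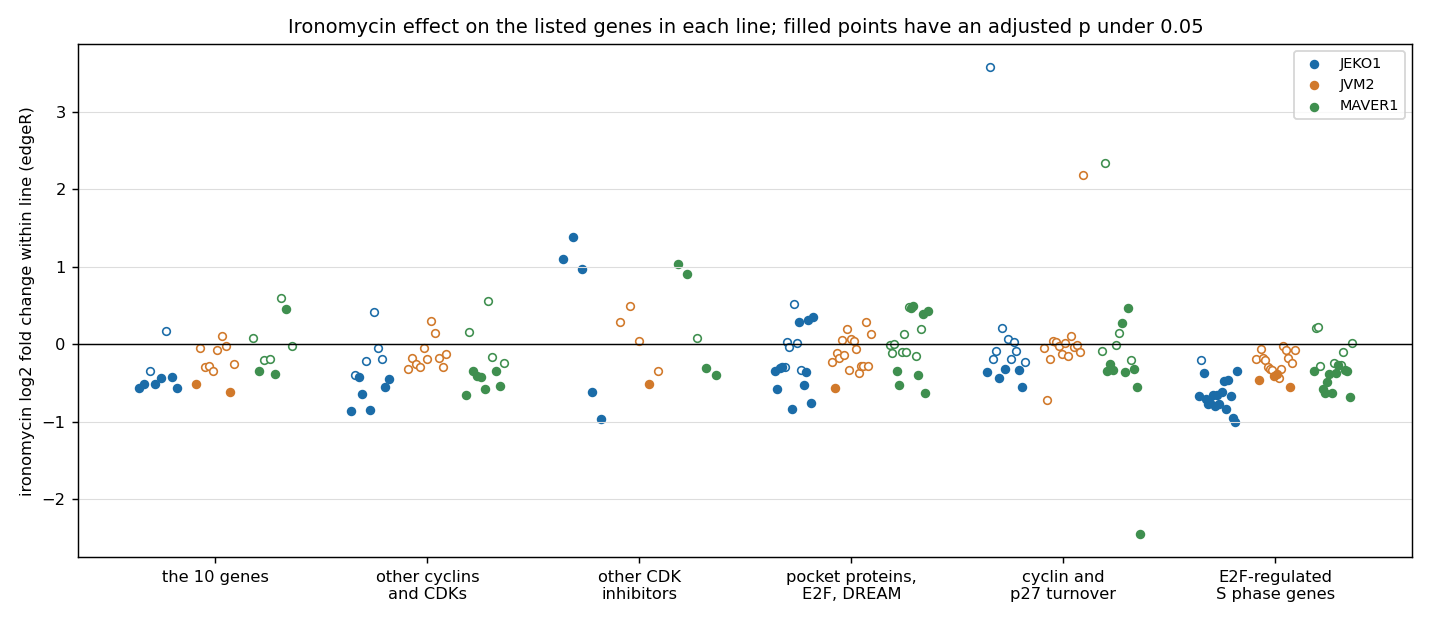
Ironomycin log2 fold change within each line (edgeR) for each tested gene of 6 lists, 1 point per gene and 1 colour per line; filled points have an adjusted p under 0.05, and members with 32 or fewer reads in every library of a line are left out for that line. The E2F-regulated S phase genes lie under 0 in JEKO1 (17 of 18 called), and 11 and 4 of 18 are called in MAVER1 and JVM2.

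The promoters of the S phase list were searched for E2F letters. One of the 8-letter words TTTCCCGC, TTTCGCGC, TTTGCCGC or TTTGGCGC, on either strand, was found in 3.31% of the 35114 RefSeq promoters. It was in 11 of 16 listed S phase genes with a promoter sequence. A gene counted if any of its windows held a word, whereas the 3.31% counts windows. The 16 genes include UHRF1, which held a word but was not matched in the counts. Such a word was in 0 of 6 members with a window at most 50 kb inside the gene (CCND3, CDK4, CDK6, CDKN1B, CDKN2A and CCNE1). This says only that these letters are not in the windows counted, of which 1 for CDKN2A lies 20.4 kb inside the gene. The window given for RB1 lies 173 kb inside the gene by the GENCODE 29 annotation, at another start, and was not counted. Windows of CCND3 at 109 and 111 kb inside the gene were not counted either, and they also lacked the words. CCND3 is thus covered only by its window 1.67 kb inside the gene. CCND1, CCND2 and CDK2 had no entry. MCM6, the helicase subunit gene named above, is shown as the contrast to CDK4, with the 250 bases before its start (RefSeq, GRCh38.p14, chr2:135876444-135876693, minus strand, 5′ to 3′ along the gene) and the E2F words in capitals. Each capital stretch holds 2 matches on opposite strands that overlap, beginning 152 and 148, and 90 and 86, bases upstream. MCM6 was the only 1 of the 35114 promoters (0.00285%) with at least 4 matches, so it does not stand for the S phase list.
MCM6: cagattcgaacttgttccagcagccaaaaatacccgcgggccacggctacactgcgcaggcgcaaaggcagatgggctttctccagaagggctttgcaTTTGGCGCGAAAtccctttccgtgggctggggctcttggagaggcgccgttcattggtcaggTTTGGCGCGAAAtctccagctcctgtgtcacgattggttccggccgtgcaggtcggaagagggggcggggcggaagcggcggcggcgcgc

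The genes whose level over the 12 libraries was most like that of CCND1 were CDKN2C (Pearson r = 0.996), the carboxypeptidase gene CPM (0.996), GNB4 (0.996), RBBP4 (0.995) and SMAD1 (0.994), among 11385 genes. CDKN2C had 67.2 to 115.0 CPM in JEKO1, 8.78 to 13.04 in JVM2 and 121.1 to 167.5 in MAVER1, the order of CCND1. Those most like CCND2 were RNF6 (0.996), ACADSB (0.996), IL6ST (0.994), FRMD4A (0.993) and KTN1 (0.993). These 12 points fall into 3 lines, so the values describe the order of the lines and carry no p. With each line's mean removed, the genes most like CCND1 were H1-2 (0.963), IK (0.961), RNF2 (0.961), H2BC11 (0.961) and BICD2 (0.954), and those most like CCND2 were TYMP (0.967), SLC37A1 (0.951), ZBTB7B (0.940), ZNF524 (0.932) and NOD2 (0.930), the latter resting on 2 to 32 reads of CCND2 per library in JEKO1 and MAVER1.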

How the data were processed

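For 12 libraries of polyadenylated RNA, the files deposited by the authors hold counts of reads for each Ensembl gene, not normalized. Per the submitters' processing notes the tools were STAR and DESeq2 and the genome build GRCh37. The counting tool, the annotation and the strand setting are not given in the sources used here. All columns were used (0 left out), and library totals ran from 35448523 to 38630809 reads.

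These counts entered quasi-likelihood F-tests (edgeR 4.0.16 under R 4.3.3) after filterByExpr by treatment and TMM scaling. A gene was called at a Benjamini-Hochberg adjusted p under 0.05 over the 18674 genes tested. Treatment and cell line were terms, with all 12 libraries in the fit. The ironomycin effect within lines and its difference between lines came from a fit with line-by-ironomycin terms. Line was a block because same-numbered libraries are 1 cell line. After treatment means were removed, the correlation of 2 libraries was 0.926 to 0.976 within lines (18 pairs). Between lines it was -0.705 to -0.127 (48 pairs), but removing a mean taken over the lines by itself pushes these values below 0. Levels are TMM CPM, log2 CPM has a prior count of 2, and levels per kilobase use exon lengths of GENCODE 29, on another build, matched by Ensembl identifier. Counting intervals are exact Poisson at 95%, and a count of 0 was set to a floor of 3 reads per library.

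The 10 members and all gene lists were chosen with earlier results of these data known. All members were named in every comparison, and genes of a list where called, up to 4 per list and comparison by lowest adjusted p; neighbours were named in full, except that 1 neighbour and 1 marker gene are not reported here, genes compared across the 3 lines or named for their promoter, and marker genes named for their level, were chosen after their values were seen, and likeness took the 5 genes with the highest r. UHRF1, 1 listed S phase gene, was not matched. Alternatives were library totals, DESeq2 size factors, no filter on low counts, DESeq2 1.42.0, a log2 fold minimum of 1, no line term, fewer libraries, and leaving out each line; leaving out single libraries was chosen after seeing the data. The fits were tested on simulated data, with 100 genes changed by 0.5 and 100 by 1 on the log2 scale. Both drugs against control recovered 66 and 95 of them, and ironomycin within JEKO1 47 and 90. The difference between lines recovered 10 and 76. Unchanged genes were also called, 23, 22 and 23 in the same order of tests. Only genes with a mean over 100 reads were changed, and for both drugs the change was the same in each line. The simulated spread came from the fit with line-by-ironomycin terms. Real responses differed between lines, so these counts do not give the recovery in the data. Promoters and motifs came from RefSeq (GRCh38.p14), and windows over 50 kb inside a gene were not counted. Tables used pandas 2.3.3 in Python 3.11.15 and plots matplotlib 3.10.9.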

Additional observations from a re-analysis of the deposited data

Results flagged for a closer look

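The ironomycin effect differed between the 3 lines for 2 of the 10 members, beside 9.38% of all genes. They were CCND1 (adjusted p = 0.0261) and RB1 (adjusted p = 0.0328), by edgeR's quasi-likelihood test of the line-by-ironomycin terms. In the lists around them the same test called CDC6 (0.00939), CDK1 (0.015), PCNA (0.0186), CDKN1A (0.0189), E2F8 (0.0224), TK1 (0.0274), LIN54 (0.031), GINS2 (0.0319), RBL1 (0.0351), USP2 (0.0403), CDT1 (0.041), CCNA2 and CDKN2D (both 0.0416) and MCM6 (0.0459). CDC6, which licenses replication origins, was at -0.21 in JEKO1, -0.46 in JVM2 and 0.21 in MAVER1 on the log2 scale. CDT1, its partner, was at -0.37, -0.06 and 0.23 in the same order. PCNA, the sliding clamp of DNA polymerases, was at -0.84 in JEKO1, -0.03 in JVM2 and -0.27 in MAVER1. Without MAVER1 neither CCND1 nor RB1 kept its call, and without JEKO1 or without JVM2 only 1 of them did. Treatment groups of 3 libraries were not tested for samples far from the others.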

How the results depend on the processing

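Of the members' log2 fold changes (and adjusted p of the difference between lines) under the alternatives, 591 kept their direction and their side of the threshold. Another 73 kept the direction but not the call, 16 gained a call and 16 changed sign. No change of sign concerned a member that was called, and the cause of the sign changes was not tested. The tally left out ibrutinib against control, both drugs against ironomycin, and the fold minimum. It also left out CDK6 within JEKO1 and between JEKO1 and the other lines, and CCND2 and CDKN2A within MAVER1. With both drugs, the 5 members called against control and the 5 against ibrutinib became 0 with no replicate block (the term for line), 0 with the 2 groups alone and 0 under a log2 fold minimum of 1, since all 5 changed by less than that. Over all genes, 5268 calls against control became 0, 5 and 1175, and 4359 against ibrutinib became 0, 306 and 870. Leaving out 1 line gave 0 to 6 members against control and 0 to 5 against ibrutinib, and library totals gave 2 against ibrutinib. For ironomycin against control DESeq2 gave 2 members in place of 0, and 2308 of all genes in place of 109. With library totals CDK4 was also called between MAVER1 and JVM2 (0.23, edgeR, adjusted p = 0.0392), and with DESeq2 CDKN2A within JEKO1 was not (adjusted p = 0.0541). The count of members whose ironomycin effect differed between lines was 1 with library totals (RB1 was lost, edgeR, adjusted p = 0.0618), 0 under the fold minimum, and 0 to 1 when a line was left out. Within lines the fold minimum left 0 in JEKO1, 0 in JVM2 and 0 in MAVER1, DESeq2 gave 4 in JVM2 (with RB1 and CDK2, and 961 of all genes in place of 610), and leaving out 1 library gave 0 in JVM2 and 0 to 3 in MAVER1. Between lines the fold minimum left 5 members for MAVER1 against JVM2 and 4 for JEKO1 against MAVER1.

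Among uncalled members, library totals turned CDKN1B in JEKO1 against JVM2 to 0.12, and, within lines, CCND2 and CDKN1B in JVM2 to 0.0098 and 0.0413 and RB1 in MAVER1 to 0.0242. Without the block CCND2 with both drugs against ibrutinib turned to -0.10. Leaving out 1 line moved CDK6 with ironomycin against control between -0.0046 and 0.83. Leaving out 1 library moved CDKN1B within JEKO1 between -0.0275 and 0.33. Within JVM2 leaving out 1 library moved CCND2 between -0.82 and 0.72, CDK4 between -0.21 and 0.0644, CDK6 between -0.51 and 0.70 and CDKN1B between -0.27 and 0.21. In the JVM2 libraries themselves CCND2 lay between 242.7 and 269.9 CPM and CDK6 between 153.5 and 184.9. The fit shares its ibrutinib terms over the lines. Without 1 JVM2 library it therefore draws on JEKO1 and MAVER1, where CCND2 had 2 to 32 reads and CDK6 0 to 141. CDK6 in MAVER1, with 53 to 141 reads, moved between -0.11 and 1.10.

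Library totals in place of TMM raised the median log2 fold change of all genes with both drugs against control from 0.05 to 0.18, within JEKO1 from 0.03 to 0.17, and between JEKO1 and JVM2 and MAVER1 from 0.03 to 0.25 and 0.21. The calls with both drugs against control then split into 3934 higher and 1563 lower, against 2655 and 2613. For CCND2 and CDKN2A in MAVER1 and CDK6 in JEKO1, the depth limits what can be said of treatments.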
